A study of Mus musculus with 3 samples.

Results

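Titin, nebulin, the myomesins and the myosin-binding proteins hold the filaments of the sarcomere in place. The 8 genes described here are Ttn, Neb, Myom1, Myom2, Myom3, Mybpc1, Mybpc2 and Mybph, of 21613 genes with a symbol on the array. They were taken as every probe whose RefSeq accession maps to one of these symbols, which gave 13 probes with 1 spot each, and the rule uses no measured value. Ttn had 4 probes, Neb and Mybpc1 had 2 each, and the other genes had 1.

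Gene expression was measured in SOL muscle, read here as the soleus, a hindlimb muscle with many slow, oxidative fibres. KO mice were homozygous for a LacZ allele of Mettl21c, given in the labels as Mettl21cLacZ/LacZ, and WT mice were wildtype at that gene. Both groups were male, of strain C57BL/6, 8 weeks old and on regular chow. The labels name 3 biological replicates of each genotype and do not say whether a replicate is 1 animal or a pool. Each of the 3 arrays carried 1 KO sample in Cy5 and 1 WT sample in Cy3. The dyes were never exchanged, so dye and genotype cannot be told apart.

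Titin is a giant elastic protein that reaches from the Z-disc to the M-band of the sarcomere, where it acts as a spring and as a template for the thick filament. Nebulin runs along the thin filament and sets its length. Myomesins cross-link thick filaments and titin at the M-band, and myosin-binding proteins C and H sit on the thick filament, where protein C tunes the action of the myosin heads. Several of these proteins come in forms typical of a fibre type: Mybpc1 is the slow and Mybpc2 the fast form of myosin-binding protein C, while Myom2, the M-protein, is found mainly in fast fibres, and Myom3 mainly in fibres of intermediate speed.

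The RefSeq promoter table of GRCm38.p6 holds 6 of the 8 genes, all but Neb and Myom2. It gives 250 bases before and 50 bases after a gene's start. The promoters of Ttn and of the slow and fast forms of myosin-binding protein C are shown, as the genes in that table whose probes or forms diverged most in the results. Capitals mark 4 motifs searched on both strands: CANNTG (the E-box bound by myogenic factors), CATTCC (the MCAT element bound by TEAD factors), TATAAA and the MEF2 site, given by its name alone.
Ttn, chr2:76982498-76982797, minus strand: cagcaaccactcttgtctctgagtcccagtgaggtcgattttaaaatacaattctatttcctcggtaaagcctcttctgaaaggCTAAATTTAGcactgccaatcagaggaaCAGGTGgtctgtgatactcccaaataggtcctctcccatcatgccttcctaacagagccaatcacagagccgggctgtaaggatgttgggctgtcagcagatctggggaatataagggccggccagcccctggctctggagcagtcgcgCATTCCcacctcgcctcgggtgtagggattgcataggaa
Mybpc1, chr10:88605103-88605402, minus strand: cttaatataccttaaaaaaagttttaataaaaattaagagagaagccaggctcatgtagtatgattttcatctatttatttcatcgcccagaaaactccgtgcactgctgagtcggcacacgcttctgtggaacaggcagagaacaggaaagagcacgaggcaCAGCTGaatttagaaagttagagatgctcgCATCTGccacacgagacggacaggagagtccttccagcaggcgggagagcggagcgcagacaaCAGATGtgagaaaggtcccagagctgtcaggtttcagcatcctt
Mybpc2, chr7:44524620-44524919, minus strand: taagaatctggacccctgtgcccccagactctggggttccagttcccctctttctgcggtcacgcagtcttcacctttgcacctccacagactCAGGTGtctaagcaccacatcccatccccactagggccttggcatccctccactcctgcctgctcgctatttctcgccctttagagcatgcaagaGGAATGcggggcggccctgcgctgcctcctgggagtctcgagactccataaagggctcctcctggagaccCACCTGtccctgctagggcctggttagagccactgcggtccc
The Ttn window holds 1 MEF2 match, which 0.557% of the 32851 promoters of this length hold, together with 1 CANNTG and 1 CATTCC match. The Mybpc1 window holds 3 CANNTG matches and the Mybpc2 window holds 2, with 1 CATTCC match on the other strand in Mybpc2. CANNTG occurs in 72.3% of promoters, CATTCC in 14.7% and TATAAA in 13.6%. No 2 matches overlapped in the 3 windows shown.

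Across the whole array, 7424 genes or unnamed transcripts had a signal well above background in at least 1 channel on all 3 arrays and were tested in limma on the log2 ratio of KO over WT. After Benjamini-Hochberg adjustment, 0 were higher and 3 lower in KO at a threshold of 0.05. The targeted transcript Mettl21c was one of these. Its processed signals were 200.4, 32.3 and 45.4 in KO samples, against 7527, 3677 and 4486 in WT samples (log2 ratio -2.45, SD 0.48, n = 3 arrays, limma adjusted p = 0.0175). It was well above background in 1 of 3 KO samples and in 3 of 3 WT samples, so the ratio is set against a KO level near background. In the processed signals, which carry no offset, it was -6.23 (SD 0.87). The median SD between arrays was 0.12. Of the 12 skeletal muscle markers listed for the check of the tissue, 10 were well above background in both channels of every array. Their summed processed signal over the 9 that could be tested ran from 302140 to 354446 in KO samples and from 270664 to 377619 in WT samples. The processed signal is the intensity after background subtraction and dye normalisation by the scanner software, and it was not scaled between arrays.

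Of the 8 genes, 7 could be tested, and 0 of these passed the adjusted threshold, where 0.0404% of all tested genes passed. Without adjustment 2 had p under 0.05 with a higher value in KO, Myom2 and Mybpc1, and 0 with a lower one, where 5.9% of all tested genes were higher and 7.53% lower (13.4% in all). Of the 7 genes 5 had a positive mean (49.1% of all tested genes) and 2 kept 1 sign on all 3 arrays (35.8%), again Myom2 and Mybpc1, both positive (17.5%), with 0 negative on all 3 (18.3%). These counts take the brightest probe of each gene. Of the 11 tested probes 5 had a positive mean and 6 a negative one. On all 3 arrays 2 probes were positive and 3 negative (17.3% and 18.6% of all tested probes). Those 3, the dimmer Neb probe and the dimmer Ttn probes, had limma unadjusted p of 0.0034, 0.0155 and 0.0089, with KO lower. Of all 8391 tested probes, 1143 had an unadjusted p under 0.05 in either direction. All 11 tested probes were well above background in both channels on all 3 arrays, and none of the 13 carried an outlier flag. Mybph and 1 Ttn probe could not be tested for lack of signal. Mean log2 ratios of the 7 genes ran from -0.69 for Mybpc2 to 0.62 for Myom2, where the 5th and 95th percentiles of all tested genes were -0.23 and 0.22.

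**Figure D1:**
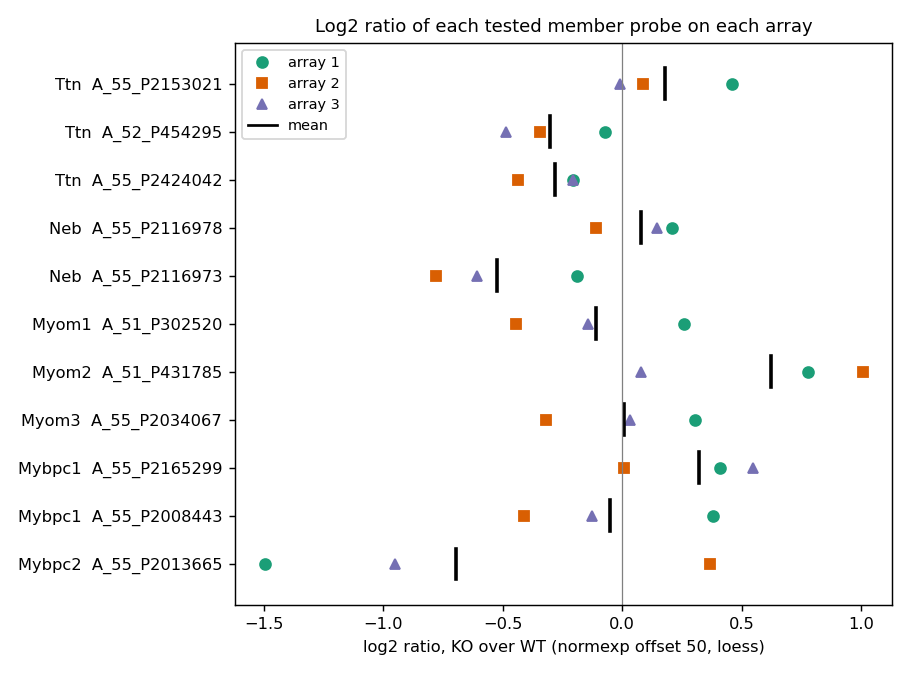
Log2 ratio of KO over WT (x axis) for each of the 11 tested probes (rows), with 1 symbol per array and a bar at the mean. The 3 Mybpc2 symbols lie furthest apart, from -1.50 to 0.37, and the Myom2 symbols all lie above 0.

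Ratios changed with brightness across the array, which bears on the brightest members. Genes with a mean log2 intensity over 12 had a median log2 ratio of 0.34 (35 genes, 91.4% of them positive) and those from 11 to 12 a median of 0.24 (112 genes). Between 7 and 8 and between 8 and 9 the medians were -0.05 and -0.05. In the scanner's processed signals the medians of the same bands were 0.0059, -0.016, -0.0054 and -0.012. Its part in the ratios below was not tested. The median of the band from 9 to 10 was 0.0098, and that of genes under 7 was 0.0073.

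**Figure D2:**
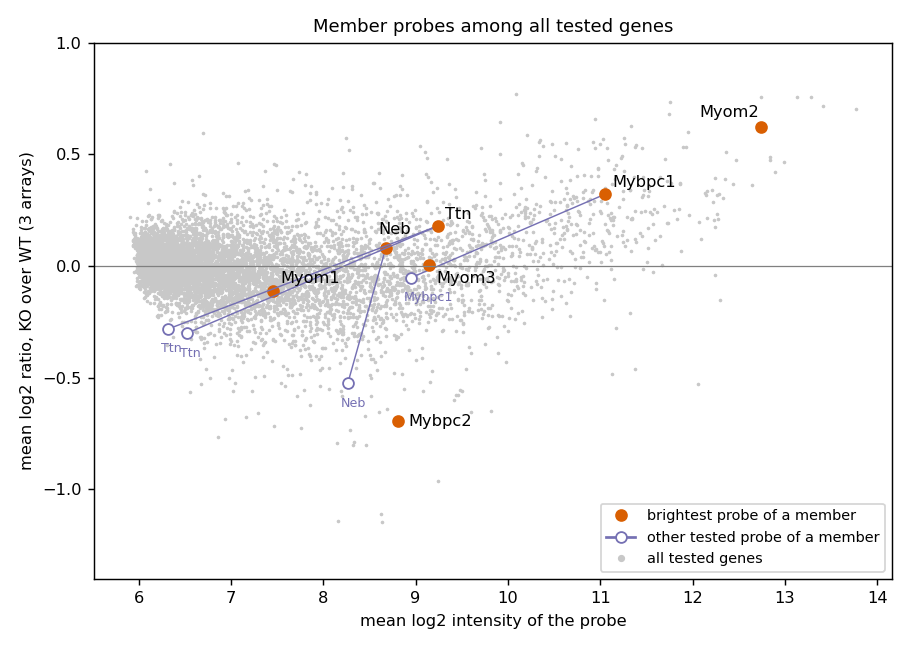
Mean log2 ratio of KO over WT over 3 arrays (y axis) against mean log2 intensity (x axis) for all 7424 tested genes (grey), the brightest probe of each of the 7 tested members (filled) and their other tested probes (open, joined to the brightest). Grey points lie mostly above 0 at an intensity over 11, where Myom2 and Mybpc1 lie, and Mybpc2 at 8.8 lies below nearly all genes. Mettl21c, at -2.45, lies off the y axis.

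The elastic filament gene Ttn had processed signals of 9773, 9931 and 10937 in KO samples, against 6576, 8523 and 10417 in WT samples, at its brightest probe, A_55_P2153021. The KO sample was the higher one on each array by this measure, while after loess the ratios were 0.46, 0.09 and -0.0075 on arrays 1 to 3. The mean was 0.18 (SD 0.25, n = 3, limma adjusted p = 0.508), and with the processed signals 0.29 (SD 0.26). Leaving out array 1 gave 0.04, leaving out array 2 gave 0.22 and leaving out array 3 gave 0.27. The median of its band, 9 to 10, was 0.0098.

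The dimmer titin probes ran the other way. Probe A_52_P454295 had processed signals of 573, 354 and 209 in KO samples, against 639, 873 and 721 in WT samples. The 3 KO signals lay below the 3 WT signals, with log2 ratios of -0.07, -0.35 and -0.48 (mean -0.30, SD 0.21, n = 3, limma adjusted p = 0.252 over 8391 tested probes). Probe A_55_P2424042, listed under the other titin accession (NM_028004), had 248, 191 and 165 in KO samples, against 321, 530 and 402 in WT samples. Its ratios were -0.21, -0.43 and -0.20 on arrays 1 to 3 (mean -0.28, SD 0.13, adjusted p = 0.198), so that both dim probes were negative on all 3 arrays, as were 18.6% of all tested probes. In the processed signals, which carry no offset, these probes stood at -1.08 (SD 0.84) and -1.04 (SD 0.59). Those signals were not scaled between arrays, and on the normalised channel scale KO and WT values overlapped for both probes. Both lay in the band under 7, whose median was 0.0073. The remaining titin probe was not well above background in any channel.

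The gap between titin probes was wider than the spread between arrays. The brightest probe exceeded A_52_P454295 by 0.53, 0.43 and 0.48 on arrays 1 to 3 (mean 0.48, SD 0.05) and A_55_P2424042 by 0.66, 0.52 and 0.20 (mean 0.46, SD 0.24). From the processed signals the gaps were 1.37 (SD 0.58) and 1.33 (SD 0.38). When arrays were centred on all probes without loess the gaps were -0.03 and -0.12. With the mean of its tested probes in place of the brightest, Ttn stood at -0.13. With 3 arrays an exact sign-flip permutation test cannot go below 0.25 (two-sided), and these gaps were looked at after the values were seen, so no test was made. The files used here hold no probe sequences, and where on the transcript each probe lies was not analysed here.

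The probes of Neb, the thin filament ruler, also disagreed. Its brighter probe, A_55_P2116978, had processed signals of 5163, 5092 and 7211 in KO samples, against 4484, 5522 and 6183 in WT samples. The groups overlapped, with log2 ratios of 0.21, -0.11 and 0.14 (mean 0.08, SD 0.17, n = 3, limma adjusted p = 0.745) and a mean of 0.10 (SD 0.19) in the processed signals. The second probe, A_55_P2116973, had 3928, 2467 and 3830 in KO samples, against 4160, 4702 and 5640 in WT samples. All 3 KO values lay below all 3 WT values, also on the normalised channel scale, as they did for 3.91% of all tested genes. The ratios were -0.19, -0.78 and -0.61 (mean -0.52, SD 0.30, n = 3, limma adjusted p = 0.142 over all tested probes). The processed signals gave the same mean, -0.52 (SD 0.43). Both probes lay in the band from 8 to 9, whose median was -0.05.

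The Neb probes were of like brightness, at mean log2 intensities of 8.7 and 8.3, against 9.2, 6.5 and 6.3 for the titin probes. The brighter Neb probe exceeded the other by 0.40, 0.67 and 0.75 on arrays 1 to 3 (mean 0.60, SD 0.19), by 0.63 (SD 0.30) with the processed signals, and by 0.53 to 0.71 with 1 array left out. Among the 672 genes with more than 1 tested probe, the brightest minus the dimmest had a median of 0.02, with 5th and 95th percentiles of -0.26 and 0.36. The Neb gap stood at percentile 99.3 of these genes, as a description of the pair, and at 0.55 when centred on all probes without loess. The brightest minus the dimmest stood at percentile 97.6 for Ttn and 95.5 for Mybpc1. These pairs were looked at after the values were seen, and ratios of dim probes among the 672 genes are drawn towards 0 by the offset. The value given for Neb as a gene therefore depended on the probe: the mean of its probes was -0.22.

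**Figure D3:**
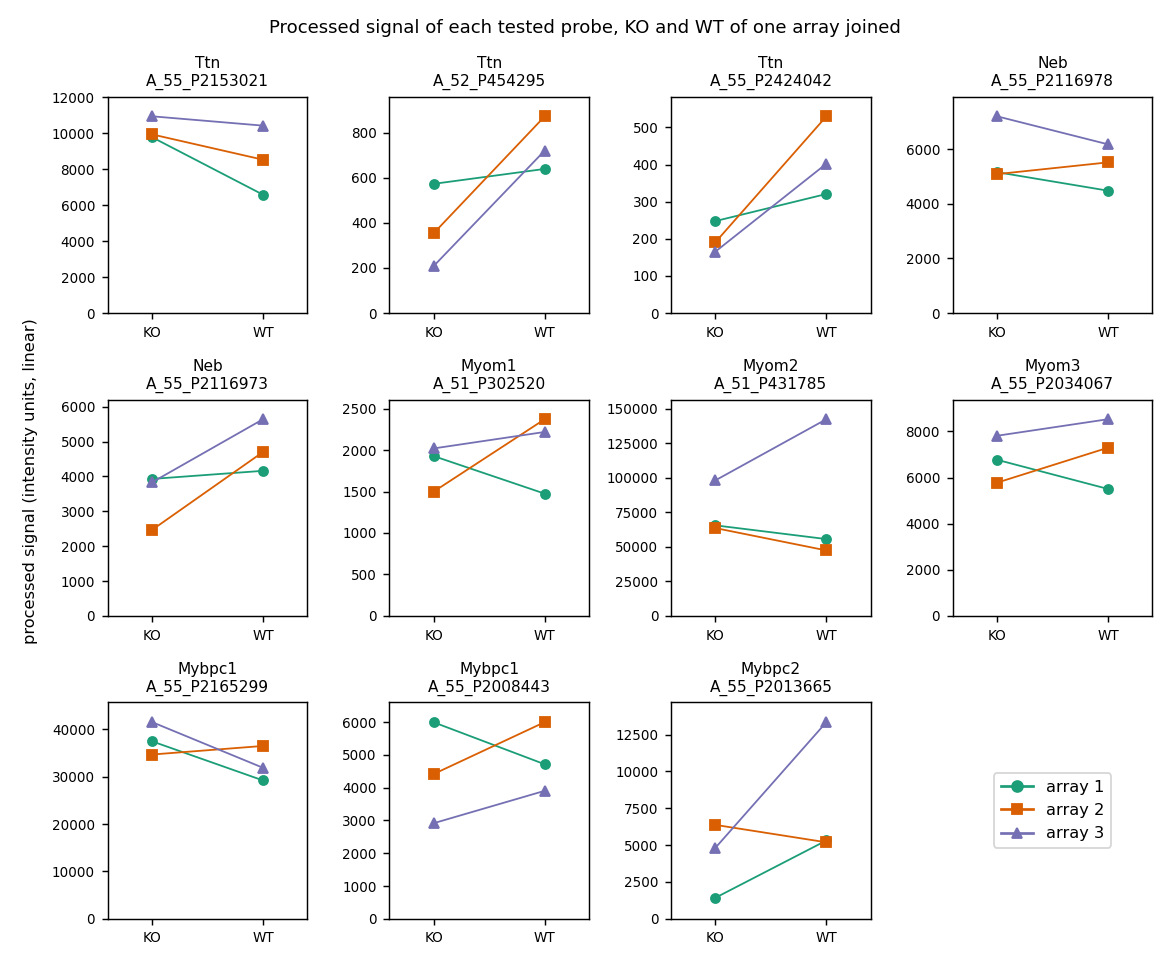
Processed signal in linear intensity units (y axis, from 0) of the 11 tested probes, KO left and WT right, with the samples of one array joined by a line. In the second Neb probe and both dim Ttn probes every line is higher at WT, while in the brightest Ttn probe every line is higher at KO.

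Of the M-band genes, Myom1, whose myomesin is found in all striated fibres, had processed signals of 1927, 1500 and 2020 in KO samples, against 1474, 2372 and 2219 in WT samples. The groups overlapped, and the ratios of 0.26, -0.44 and -0.14 had no common direction (mean -0.11, SD 0.35, n = 3, limma adjusted p = 0.775). In the processed signals the mean was -0.14 (SD 0.52), and the median of its band was -0.05. Myom3 had 6772, 5779 and 7813 in KO samples, against 5506, 7296 and 8531 in WT samples. Its ratios of 0.30, -0.32 and 0.03 averaged 0.0060 (SD 0.31, n = 3, limma adjusted p = 0.991), against -0.05 (SD 0.32) in the processed signals, and the median of its band was 0.0098. In both genes array 1 was positive and array 2 negative.

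Myom2, encoding the M-protein, was the member with the smallest p. Its processed signals were 65554, 63580 and 98126 in KO samples, against 55612, 47398 and 142402 in WT samples, so KO was higher on arrays 1 and 2 and lower on array 3. After loess the ratios were positive on all 3 arrays, at 0.78, 1.01 and 0.08 (mean 0.62, SD 0.48, n = 3, limma adjusted p = 0.189). On the normalised channel scale the lowest KO value, 12.97, lay just above the highest WT value, 12.96, and the KO value of array 2 set that margin. Channel values of KO and WT were apart for 2 of the 7 genes, Myom2 and Mybpc1, where 8.22% of all tested genes were apart, 4.31% with KO higher and 3.91% with KO lower. Myom2 was also the brightest member, in the band whose median was 0.34. Its mean was 0.04 (SD 0.51) with the processed signals. When arrays were centred on all probes without loess it stood at -0.65, or at -0.21 if centred on the tested probes. Without array 3 the ratio was 0.89 and without array 2 it was 0.43.

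Among the myosin-binding proteins, the slow form Mybpc1 had processed signals of 37439, 34660 and 41497 in KO samples, against 29184, 36464 and 31853 in WT samples, at its brighter probe, A_55_P2165299. The ratios were 0.41, 0.0085 and 0.55 (mean 0.32, SD 0.28, n = 3, limma adjusted p = 0.288). The lowest KO channel value, 10.99, lay just above the highest WT value, 10.98. The band of this probe had a median of 0.24 and an upper quartile of 0.37, so the ratio lay inside the interquartile range of genes of like brightness. The processed signals gave a mean of 0.22 (SD 0.26). Centred on all probes without loess the ratio was -0.75, or -0.31 if centred on the tested probes.

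The dimmer Mybpc1 probe, A_55_P2008443, listed under a second accession of the gene (NM_175418), gave no common direction. It had 5995, 4418 and 2918 in KO samples, against 4715, 6001 and 3905 in WT samples. Ratios were 0.38, -0.41 and -0.13 (mean -0.05, SD 0.40, n = 3, limma adjusted p = 0.915 over all tested probes). The processed mean was -0.17 (SD 0.45), and the median of its band, 8 to 9, was -0.05. The brighter probe exceeded it by 0.03, 0.42 and 0.67 on arrays 1 to 3 (mean 0.37, SD 0.32). With the mean of both probes Mybpc1 stood at 0.14.

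Mybpc2, the fast form, had the lowest mean of the 7 genes and the widest spread. Its processed signals were 1427, 6371 and 4816 in KO samples, against 5313, 5189 and 13344 in WT samples. KO was lower on arrays 1 and 3 and higher on array 2, with log2 ratios of -1.50, 0.37 and -0.95 (mean -0.69, SD 0.96, n = 3, limma adjusted p = 0.397). The low KO value of array 1 and the high WT value of array 3 stand out, and the groups overlapped. The mean lay at percentile 0.189 of all tested genes and the SD at percentile 99.9. Of those genes 4067 lay in the band under 7, where the offset draws ratios towards 0. In the band of Mybpc2, 8 to 9, the quartiles of the mean were -0.16 and 0.06 and the lowest mean was -1.14. The mean was -1.02 (SD 1.16) with the processed signals, and the median of its band was -0.05.

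The call on Mybpc2 turned on array 2, the only array on which its ratio was positive. Without that array, on the remaining 2, it stood at -1.22 and passed in limma (adjusted p = 0.0081). Leaving out array 2 removed the value of opposite sign, so this call is no separate evidence. Without array 1 the ratio was -0.29 and without array 3 -0.56, neither past the threshold. Centring on all probes without loess also gave a call, at -1.49 (adjusted p = 0.0012), or at -1.05 (adjusted p = 0.028) if centred on the tested probes. Those settings called 4917 and 2658 of the 7424 tested genes, so a call there says little about a single gene. In whole-muscle RNA, fewer fibres of a type and less RNA per fibre cannot be told apart.

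Over the 3 arrays, the gene nearest to Mybpc2 by root mean square distance of log2 ratios, of 5768 genes with a symbol, was Actn3, the fast-fibre alpha-actinin of the Z-disc. It stood at -1.39, 0.23 and -1.24 on arrays 1 to 3, at a distance of 0.20. Arl6ip5, at -0.83, 0.14 and -0.98 (distance 0.41), and Gpd1, the cytosolic glycerol-3-phosphate dehydrogenase, at -0.71, 0.30 and -0.84 (distance 0.46), followed. All 3 were negative on arrays 1 and 3 and positive on array 2, which is what the distance selects for. Without array 2 Actn3 stood at -1.32 and passed in limma (adjusted p = 9.9e-04), in a setting that called 16 of 7693 genes. It was chosen for its likeness to Mybpc2, which passed there too, so this is no separate evidence. Myh4, the type IIB myosin heavy chain, had a value on arrays 1 and 2 only, at -1.18 and 0.73. Other fast-fibre genes looked at did not share these signs on all 3 arrays. Myh1, the type IIX heavy chain, stood at -0.51, -0.26 and 0.09 on arrays 1 to 3, and Myh2, the type IIA heavy chain, at 0.31, -0.15 and 0.28. The fast light chain Mylpf stood at -0.15, -0.67 and -0.57, and the fast troponin T Tnnt3 at 0.15, 0.15 and 0.33. Myl1, another fast light chain, stood at -0.15, 0.06 and 0.30, sharing the signs on arrays 1 and 2 only. The fast-fibre genes from Myh4 on were set beside Mybpc2 after their values were seen.

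**Figure D4:**
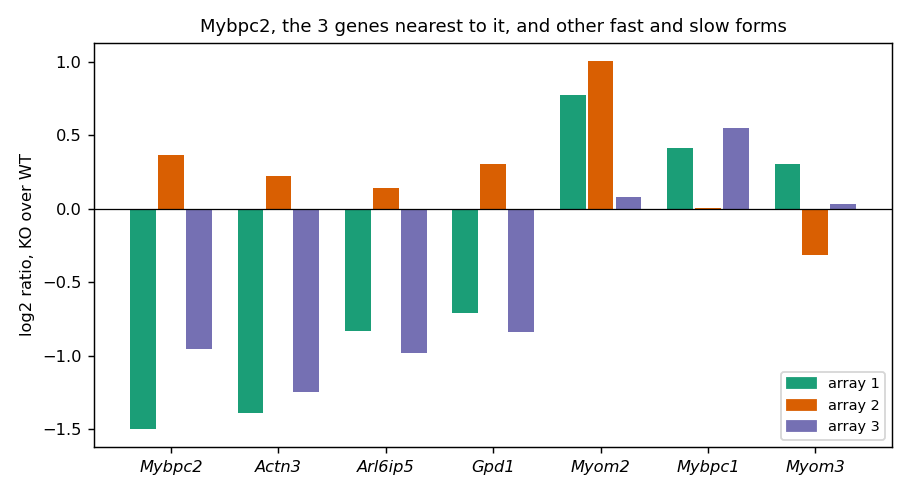
Log2 ratio of KO over WT (y axis) on each array (bars) for Mybpc2, the 3 genes nearest to it and 3 further members. Mybpc2, Actn3, Arl6ip5 and Gpd1 were below 0 on arrays 1 and 3 and above 0 on array 2, while Myom2, also a fast form, was above 0 on all 3 arrays.

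Forms typical of slower and faster fibres were then set against each other as differences between log2 ratios within an array, since signals of different probes cannot be compared as levels. Mybpc1 minus Mybpc2 was 1.91, -0.36 and 1.50 on arrays 1 to 3 (mean 1.02, SD 1.21, exact sign-flip permutation p = 0.50, two-sided, n = 3). The slow form was thus favoured in KO on arrays 1 and 3 and the fast form on array 2. Myom3 minus Myom2 was -0.47, -1.32 and -0.05 (mean -0.61, SD 0.65, exact sign-flip permutation p = 0.25, two-sided, n = 3, the smallest that 3 arrays allow). With the processed signals the same differences averaged 1.25 (SD 1.41) for the Mybpc pair and -0.10 (SD 0.60) for the Myom pair, which then stood at 0.06, -0.76 and 0.41 on arrays 1 to 3. Centred on all probes without loess the differences averaged 0.74 for the Mybpc pair and -0.19 for the Myom pair. The genes of a pair differed in brightness. Band medians were 0.24 for Mybpc1 and -0.05 for Mybpc2, and 0.0098 for Myom3 and 0.34 for Myom2. The part of brightness in these differences was not tested. The pairs had means of opposite sign, and neither was beyond the spread between arrays.

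Mybph, which encodes myosin-binding protein H, gave almost no signal. Its processed signals were 211, 28.4 and 26.8 in KO samples, against 98.4, 68.3 and 23.0 in WT samples. The KO sample of array 1 was the only one of the 6 well above background, so no ratio is given.

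Genes listed as titin partners had negative mean ratios. The list was chosen with earlier results of these data known, so its counts describe it and are no test. Of 18 listed genes 13 were tested, and the mean was below 0 in 13 of them (50.9% of all tested genes). Their median was -0.28, against -0.0027 over all tested genes. The means ran from -0.80 for Actn3 to -0.0090 for Ankrd23. None passed after adjustment, while 7 were lower and 0 higher by the unadjusted p (7.53% and 5.9% of all tested genes). Actn3, set beside Mybpc2 above, was among those 7 and was positive on array 2. Array by array, the median of the list was -0.08 on array 1, -0.23 on array 2 and -0.38 on array 3. In the processed signals 12 of the 13 were negative, with a median of -0.32, and the median was negative in all 17 settings in which it was computed, from -0.88 to -0.14. These settings reuse the same arrays and are not separate evidence. Of the 13, 3 lay in the band from 7 to 8 and 4 in that from 8 to 9, whose medians over all genes were also below 0, at -0.05.

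Trim54 and Trim63, which encode the ubiquitin ligases MuRF3 and MuRF1, had the smallest p of this list. Trim54 stood at -0.35, -0.63 and -0.99 on arrays 1 to 3 (mean -0.65, SD 0.32, limma adjusted p = 0.0975), and passed under robust, trended moderation (adjusted p = 0.0171). Trim63 stood at -0.22, -0.23 and -0.38 on arrays 1 to 3 (mean -0.28, SD 0.08, adjusted p = 0.175). Sqstm1, an autophagy receptor linked to the titin kinase, stood at -0.17, -0.30 and -0.99 (mean -0.49, SD 0.44, adjusted p = 0.260). All 3 were negative on every array. Ankrd1, a stretch-responsive titin partner, was not well above background in any channel.

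The partners of nebulin and the thin filament had no common direction, with 9 of 18 tested genes positive and 9 negative and a median of 0.0096. By the unadjusted p 5 were higher and 2 lower (5.9% and 7.53% of all tested genes), and 0 passed after adjustment. In the processed signals 5 were positive and 13 negative, with a median of -0.06. Nrap, which is related to nebulin and acts in myofibril assembly, had the lowest ratio, at -0.40, -1.73 and -1.31 (mean -1.14, SD 0.68, limma adjusted p = 0.111). It passed with an offset of 16 (-1.25, adjusted p = 0.0333) and without array 1 (-1.52, adjusted p = 0.0327). Tnnt1, the slow troponin T, stood at 0.40 (SD 0.29, adjusted p = 0.205) with a mean of -0.04 in the processed signals. Xirp2, an actin-binding protein of the intercalated disc and myotendinous junction, stood at -0.28 (SD 0.20, adjusted p = 0.272).

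Of 13 thick filament genes 7 were tested, 4 positive and 3 negative, with a median of 0.07, which was -0.04 without array 3, and 0 past the adjusted threshold. Myl3, a slow myosin light chain, stood at 0.49 (SD 0.17, limma adjusted p = 0.0895), in the brightest band, and at 0.06 with the processed signals. Smyd1, a methyltransferase that helps assemble the thick filament, stood at -0.34 (SD 0.12, adjusted p = 0.135), and Mylpf, the fast regulatory light chain, at -0.46 (SD 0.27, adjusted p = 0.151). The cardiac form Mybpc3, the myosin chaperone Unc45b and Mybphl, a relative of Mybph, were not well above background in any channel. Of 6 other sarcomeric proteins built of immunoglobulin domains 3 were tested, all with a positive mean: Speg at 0.19 (SD 0.07, adjusted p = 0.314), Myot at 0.14 (SD 0.05, adjusted p = 0.420) and Palld at 0.07 (SD 0.13, adjusted p = 0.753). In the processed signals Speg stood at -0.09.

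Markers of other cell types were read on the same scale, and their part in these results was not tested. The 6 tested macrophage markers all had a negative mean (50.9% of all tested genes), with a median of -0.24. On arrays 1 to 3 their medians were -0.31, -0.27 and 0.04. Their summed processed signal was 6849 to 10536 in KO samples and 7584 to 15341 in WT samples. The 7 tendon markers had a median of -0.09, with sums of 13763 to 24754 in KO samples and 10669 to 34869 in WT samples. For the 5 tested smooth muscle markers the median was -0.09, with sums of 20536 to 23750 in KO samples and 19416 to 44249 in WT samples. The 3 tested red blood cell markers all had a positive mean (49.1% of all tested genes), with a median of 0.21. On arrays 1 to 3 their medians were 0.38, 0.06 and 0.30. Their sums were 13781 to 32567 in KO samples and 11138 to 18358 in WT samples. The 6 tested adipocyte markers had a median of 0.13, with medians of 0.07, -0.11 and 0.38 on arrays 1 to 3. Their sums, not scaled between arrays, were 9036 to 10356 in KO samples and 6445 to 8873 in WT samples. Lep and Cidec among the adipocyte markers, Lyz2 and Ptprc among the macrophage markers and Tek among the endothelial markers were not well above background in any channel. The medians of 3 endothelial and 2 Schwann cell markers were 0.03 and -0.07.

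**Figure D5:**
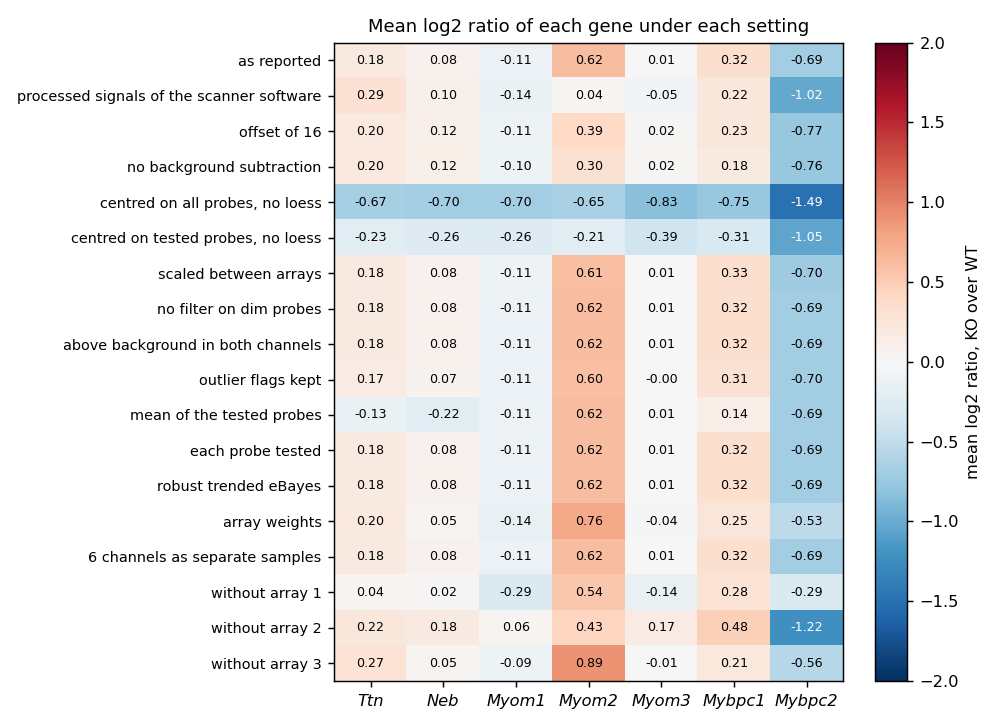
Mean log2 ratio of KO over WT (colour and number) for the 7 tested members (columns) under the reported setting and 17 others (rows). Mybpc2 is negative in every row, from -1.49 to -0.29, while all 7 genes are negative in both rows without loess.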

How the data were processed

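Total RNA of KO and WT SOL muscle was isolated with Trizol and labelled by a low-input method, KO in Cy5 and WT in Cy3, per the labels' protocols. The deposited scanner files give the intensity of each spot and of its local background in both channels, quality flags, a processed signal and a log10 ratio. Per the file headers the software was Feature Extraction 12.0.3.1, and version 11.5 of Agilent Feature Extraction is the one in the submitters' processing notes. The deposited series matrix holds that log10 ratio with the same direction, differing by at most 0.005, with column medians of 0. The genome build is not given in the sources used here, and all 3 arrays lay on 1 slide.

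Median spot intensities were used, since the files used here hold no mean. Background was corrected with normexp (offset 50) and loess was fitted within each array in limma 3.58.1 (R 4.3.3), with control and outlier-flagged spots at weight 0. Ratios of dim probes are drawn towards 0 by this offset. Flagged spots (536, 572 and 1002 on arrays 1 to 3) were then left out and 0 spots were saturated. Of 59305 non-control spots, 22.5% to 22.9% per array exceeded background in KO and 20.4% to 23.6% in WT, by the scanner's flag. Testing required a value on every array, and the flag on all 3 arrays in KO, in WT or in both (8391 of 55681 probes). RefSeq accessions without version were matched to GRCm38.p6 symbols (28664 of 29472 probes). The brightest tested probe stood for a gene, and probe values were adjusted over all tested probes.

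The mean log2 ratio of the 3 arrays was tested against 0 with eBayes, two-sided, with Benjamini-Hochberg adjustment over 7424 genes. The array pairs 1 KO with 1 WT sample, as the labels state. SD values are between arrays, and their number limits the precision. Channel values for overlap were scaled with Aquantile. The steps were tested on simulated arrays. Genes named by a fixed rule were the 8 members, Mettl21c, the 3 genes of smallest p of each pathway list and the 3 genes nearest to the member of largest absolute ratio. Fast-fibre genes set beside Mybpc2, and some further listed genes and markers, were named outside that rule. Members and lists were chosen with earlier results of these data known.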

Additional observations from a re-analysis of the deposited data

How the results depend on the processing

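Besides the reported setting, 17 others were run. The number of genes called across the array was 3 as reported. It was 0 with the processed signals (806 at an unadjusted p under 0.05), 25 with an offset of 16, 5 without background subtraction, 4917 when centred on all probes without loess, 2658 when centred on tested probes without loess, and 1 each when scaled between arrays, with outlier flags kept, with the mean of the tested probes and with each probe tested. It was 0 without a filter (2468 at an unadjusted p under 0.05) and 0 with both channels above background (935), 85 with robust, trended moderation, 62 with array weights, and 0 to 16 with 1 array left out. Under centring on all probes the median over tested genes was -0.45. The cause of these differences was not tested.

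Members called were 0 as reported, 7 and 1 in the settings centred on all and on tested probes, and 0 to 1 with 1 array left out (Mybpc2, without array 2). Calls among the 4 pathway lists were 0 as reported, 37 and 24 in the settings without loess, 1 with an offset of 16 (Nrap), 1 with robust, trended moderation (Trim54), 1 with array weights (Myl3) and 0 to 1 with 1 array left out. When the 6 channels entered the fit unpaired (no replicate block for the array), 0 genes were called, with 236 at an unadjusted p under 0.05, and 0 members.

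Signs turned as follows. Centred on all probes without loess, Ttn was -0.67, Neb -0.70, Myom2 -0.65, Myom3 -0.83 and Mybpc1 -0.75, and the titin probe gaps were -0.029 and -0.12 (the gaps and their settings were chosen after seeing the data). Centred on tested probes they were -0.23, -0.26, -0.21, -0.39 and -0.31. With the mean of the tested probes Ttn was -0.13 and Neb -0.22. Myom3, near 0 as reported, was -0.055 with the processed signals, -0.0032 with outlier flags kept, -0.036 with array weights, -0.14 without array 1 and -0.0066 without array 3. With 1 array left out Myom3 ran from -0.14 to 0.17 and Myom1 from -0.29 to 0.058 (positive without array 2). With 1 array left out Neb ran from 0.017 to 0.18 and Ttn from 0.041 to 0.27. List medians, not computed for each probe tested, turned negative without loess, to -0.81 and -0.37 for the thick filament, -0.74 and -0.30 for the thin filament and -0.49 and -0.051 for other immunoglobulin proteins (centred on all and on tested probes). The thick filament median was also -0.040 without array 3. The thin filament median, 0.0096 as reported, was also -0.063 with the processed signals, -0.070 with an offset of 16, -0.066 without background subtraction, -0.0090 without a filter and -0.069 without array 1. Mybpc1 minus Mybpc2 stayed positive (0.57 to 1.70) and Myom3 minus Myom2 negative (-0.90 to -0.096) in all 14 other settings run for them. Dim probes, such as Mybph and 1 of the Ttn probes, were limited by signal over background.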
